A study of Homo sapiens with 18 samples.

Results

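The kinesin superfamily was followed over the 18 arrays of the series: all 85 probe sets, of 54675 on the array, whose platform annotation named exactly 1 gene with a KIF or KIFC symbol. They covered 41 of the 19775 genes with such a probe set, among them KIF6. The family was chosen by gene symbol, and KIF6 was picked out of it by the log2 differences of 1 of its probe sets in these same comparisons. A549 cells, an established human lung carcinoma line, were grown at the air-liquid interface and kept for 72 h in an exposure chamber with 0, 0.1 or 0.5 ppm formaldehyde, or in a reference chamber that held 0 ppm and received no analyte-carrying gas stream. Each concentration was run in 3 experiments, with 1 exposure chamber array and 1 reference chamber array in each of the 9 experiments, hence 6 groups of 3 arrays. All cultures shared the cell line, the humidified air and the duration, so the groups model 1 line without the other cells of an airway. RNA was labelled from its 3′ end and hybridised to Affymetrix HG-U133 Plus 2.0 arrays, where a probe set is a group of short probes for 1 transcript and its signal is a brightness on a linear scale.

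Kinesins are motors that use ATP to walk along microtubules. Mitotic kinesins build the spindle, move chromosomes and complete cytokinesis, and their transcripts are known to peak late in the cell cycle. Transport kinesins carry vesicles, organelles and intraflagellar cargo, mostly towards microtubule plus ends, and kinesins of the cilium and of signalling make up much of the rest. KIF6 is a kinesin-9 motor, a branch known mainly from motile cilia.

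The genes were sorted by known role into 13 mitotic genes with 19 probe sets, 17 transport genes with 42, and 11 others with 24. In RefSeq (build GRCh38.p14), 33 of the 41 genes had a promoter entry, a window of 300 bases with 250 before and 50 after the annotated start, and a gene with several annotated starts had a window for each. Each window was searched on both strands, overlaps counted, for the cell cycle genes homology region core (TTTGAA, or TTCAAA on the other strand) and for the CCAAT box (CCAAT or ATTGG), letters known from promoters of late cell cycle genes. The core was found in 9 of 14 mitotic windows (64.3%), 1 of 17 transport windows (5.88%) and 0 of 11 other windows, against 15.2% of all 35116 windows. The CCAAT box was found in 71.4%, 29.4% and 36.4% of those windows, against 34.6% of all. Both stood together in 8 mitotic windows (57.1%), 1 transport window (5.88%) and 0 other windows, against 5.9% of all. The stretches from 100 bases before to 20 after the start are shown for the 4 brightest mitotic genes and the brightest transport gene, because the mitotic class held the letters more often than the others in these windows, with no test of that difference; capitals mark either motif.
KIF11 (chr10:92593030-92593149, plus strand): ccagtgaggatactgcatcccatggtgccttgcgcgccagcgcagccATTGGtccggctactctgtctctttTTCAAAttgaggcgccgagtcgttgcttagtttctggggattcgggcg
KIF14 (chr1:200620732-200620851, minus strand): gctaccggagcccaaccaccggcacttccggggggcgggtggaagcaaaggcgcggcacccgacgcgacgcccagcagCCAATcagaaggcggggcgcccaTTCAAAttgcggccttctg
KIF20B (chr10:89701490-89701609, plus strand): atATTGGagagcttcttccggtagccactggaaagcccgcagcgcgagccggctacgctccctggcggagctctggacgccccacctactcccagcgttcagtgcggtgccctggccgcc
KIF4A (chrX:70290004-70290123, plus strand): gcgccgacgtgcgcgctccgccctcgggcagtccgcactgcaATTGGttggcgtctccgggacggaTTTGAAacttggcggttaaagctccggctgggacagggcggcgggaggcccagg
KIF21A (chr12:39443101-39443220, minus strand): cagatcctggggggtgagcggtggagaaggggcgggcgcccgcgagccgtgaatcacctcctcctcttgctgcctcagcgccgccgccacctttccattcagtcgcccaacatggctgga
KIF11, KIF14 and KIF4A carried both motifs within these stretches. KIF20B carried the CCAAT box there and the homology region core after the end of the stretch shown, and KIF21A carried neither. A match of letters is a description of the sequence and shows no bound factor.

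The arrays had been scaled alike, and the median probe set had a mean log2 signal of 4.78, a signal of 27.5. Epithelial and A549 genes (KRT8, KRT18, EPCAM, CDH1, AKR1B10, AKR1C1 and ALDH1A1) lay at percentile 81.7 of all probe sets or above. Of 5 ciliary genes, FOXJ1, DNAI1 and DNAH9 lay at percentiles 38.8, 27.9 and 26.8, and TPPP3 and RSPH1 at 62.7 and 59.2. The leukocyte genes PTPRC and CD3E and the endothelial gene VWF lay at or below percentile 21.6, and the endothelial gene PECAM1 at 50.7. Among fibroblast genes, COL1A1 lay at percentile 74.1 and COL1A2 and DCN at 31.5 and 28.1. On 2 arrays, reference chamber replicate 3 of the 0 ppm experiments and reference chamber replicate 1 of the 0.1 ppm experiments, the 5′ probe set of actin was low (log2 6.85 and 5.90, against 7.75 to 9.70 elsewhere). For the KIF6 probe set 1552538_a_at, the brightest mitotic and transport genes and these 2 classes, differences that they moved by over 1.5 times are also given without them.

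Most kinesin genes gave a signal above the median probe set. By its brightest probe set, this held for 31 of 41 genes: 12 of 13 mitotic, 14 of 17 transport and 5 of 11 other genes. The mean log2 signal of a gene had a median of 8.14 among mitotic genes (0.40 to 12.26), 8.90 among transport genes (2.56 to 13.05) and 3.93 among the others (1.95 to 11.78). A probe set's signal depends on its probes, so these values order no transcripts by abundance. The lowest was KIF2B, a kinetochore depolymerase, and the brightest transport gene was KIF21A. Of the 85 probe sets, 53 lay above the median probe set and varied over the 18 arrays with a median SD of 0.42 log2 units, whereas the other 32 had a median SD of 1.18. The same split over all probe sets gave 0.41 and 1.30.

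**Figure D1:**
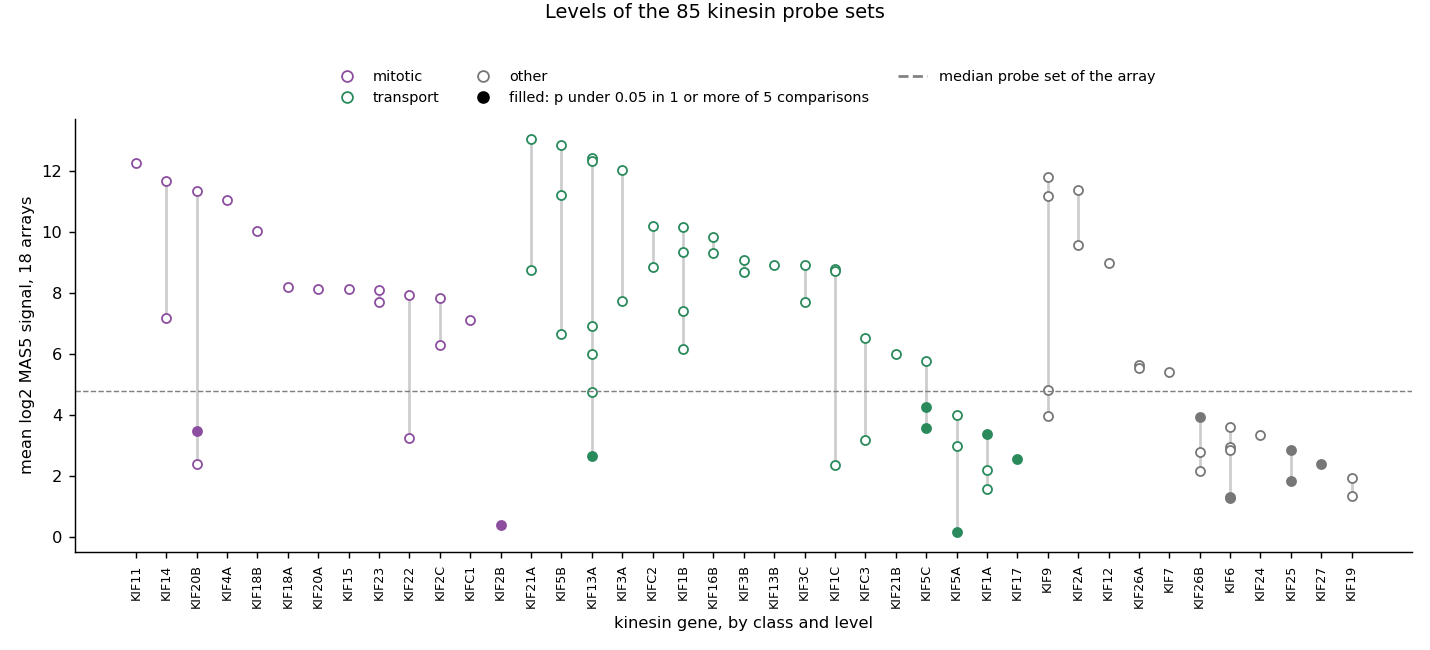
Mean log2 signal over the 18 arrays (vertical axis) of the 85 kinesin probe sets, with the probe sets of a gene joined and genes ordered by class and level (horizontal axis). The dashed line is the median probe set of the array at 4.78, and the 13 filled points, with an unadjusted p under 0.05 in 1 or more of the 5 comparisons, all lie below it.

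Between chambers and between concentrations, single kinesin probe sets passed the threshold the study had set, an unadjusted p below 0.05 (limma here), and their share is set beside that of all probe sets. With 0 ppm in both chambers, 5 of 85 passed (5.88%), against 4.84% of all probe sets. The exposure and reference chambers differed in 3 kinesin probe sets at 0.1 ppm (3.53%, against 4.00% of all) and in 2 at 0.5 ppm (2.35%, against 3.92% of all). Within the exposure chamber, 6 passed between 0.1 and 0 ppm (7.06%, against 4.47% of all) and 5 between 0.5 and 0 ppm (5.88%, against 4.56% of all). There the concentrations came from different experiments, numbered 7 to 9 for 0 ppm and 1 to 6 for the others. Concentration and experiment thus cannot be told apart within the exposure chamber. These 21 calls fell on 13 probe sets of 11 genes, and 72 kinesin probe sets passed nowhere.

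None of the 53 kinesin probe sets above the median probe set passed. Among all probe sets above it, 1.09%, 0.355% and 0.578% passed between chambers at 0, 0.1 and 0.5 ppm, and 1.08% and 1.13% within the exposure chamber at 0.1 and 0.5 ppm. In this fit all kinesin calls thus came from the 32 dimmer probe sets, of which 15.6%, 9.38% and 6.25% passed between chambers and 18.8% and 15.6% within the exposure chamber at 0.1 and 0.5 ppm. Among all probe sets at or below the median, 8.59%, 7.64% and 7.27% passed between chambers and 7.86% and 7.98% within the exposure chamber, and 90.3% of all calls on the array lay there. Other settings did call bright kinesins: 8 calls of 7 genes with 32 added before log2, 5 of 4 genes with a trend, and 3 of 3 genes in a fit over all 18 arrays. In a single comparison these were at most 3, 2 and 1 of the 53 bright kinesin probe sets. Of all probe sets above the median, 2.56% to 5.50%, 0.849% to 3.19% and 0.541% to 2.45% passed in a comparison under these settings. No probe set of the array had an adjusted p (limma, Benjamini-Hochberg over all probe sets) under 0.05, and the lowest among kinesins was 0.251, of KIF6 between 0.1 and 0 ppm. For the other kinesin genes named below as called by their brightest probe set it was 0.730 or higher. With 3 arrays a group, the number of arrays limits the precision, and p-values measure the spread between these experiments. With a replicate block, which pairs the chambers of an experiment, 4 kinesin probe sets passed at 0.5 ppm (4.71%, against 5.32% of all), 3 of them of KIF6.

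The chamber difference was itself compared between concentrations. It differed for 3 kinesin probe sets at 0.1 against 0 ppm (3.53%, against 3.21% of all) and for 3 at 0.5 against 0 ppm (3.53%, against 3.69% of all), with no adjusted p under 0.05 (limma). For KIF5C these were different probe sets, 1557089_at in the first contrast and 203129_s_at in the second. Its brightest, 203130_s_at, gave -0.024 and 0.60 (limma, unadjusted p = 0.965 and 0.288). The others were of KIF20B in the first, and of KIF6, 1 in the first and 2 in the second, whose values follow as a description.

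KIF6 stood out through 1 dim probe set, 1552538_a_at, at percentile 16.3 of all probe sets. In the exposure chamber its signal was 1.18, 1.56 and 1.71 at 0 ppm, 8.09, 7.75 and 10.7 at 0.1 ppm, and 9.07, 5.40 and 5.75 at 0.5 ppm. In the reference chambers beside them it was 0.911, 0.965 and 3.24, then 2.41, 0.986 and 0.913, then 1.61, 1.77 and 1.39. All 6 arrays of cultures that received formaldehyde lay above all 12 others, and every one of the 18 signals lay below the median probe set of 27.5. The number of all probe sets that separated in this way was not counted.

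On the log2 scale the KIF6 difference between exposure and reference chamber was 2.76 (SE 0.49) at 0.1 ppm, 2.05 (SE 0.30) at 0.5 ppm and 0.05 (SE 0.56) at 0 ppm. Without the reference chamber array of low 5′ actin signal the difference at 0 ppm was 0.64. Within the exposure chamber the KIF6 difference was 2.58 (SE 0.27) between 0.1 and 0 ppm and 2.16 (SE 0.31) between 0.5 and 0 ppm. The 0.1 and 0.5 ppm signals of the exposure chamber overlapped, with means of 8.85 ± 1.62 and 6.74 ± 2.03 (SD, n = 3). These contrasts chose KIF6, so the values are a description with no test: 13 of all probe sets (0.0238%) passed in the 4 comparisons with formaldehyde and not between the chambers at 0 ppm, and 1552538_a_at was the 1 kinesin probe set among them. When 32 was added to all signals first, the 4 differences were 0.29, 0.20, 0.29 and 0.21.

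None of the other 4 probe sets of KIF6 had all 6 arrays with formaldehyde above the 12 others. The signal of 1562639_at, at percentile 41.1, was 12.7, 13.5 and 14.2 at 0 ppm, 23.1, 14.2 and 15.0 at 0.1 ppm, and 21.8, 8.99 and 10.7 at 0.5 ppm in the exposure chamber. In the reference chambers it was 4.97, 14.3 and 14.4, then 11.4, 9.11 and 13.2, then 12.2, 9.72 and 9.95. Exposure and reference chamber overlapped at 0 and 0.5 ppm and stood apart at 0.1 ppm, with log2 differences of 0.42, 0.61 and 0.28 at 0, 0.1 and 0.5 ppm.

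For 232695_at the differences between chambers were -0.58, -0.83 and -0.01 at 0, 0.1 and 0.5 ppm. For 1556232_at they were -1.59, -0.94 and 1.32, and for 1556233_s_at -1.48, 1.05 and 1.48. At 0.5 ppm both of these passed the threshold with the replicate block and not without it, and 1556232_at was the second KIF6 probe set whose chamber difference differed between 0.5 and 0 ppm. Over the 18 arrays the log2 signals of KIF6 probe sets correlated with r between -0.33 and 0.52, and no pair had an adjusted permutation p under 0.05. The pair of 1556232_at and 1556233_s_at, designed on the same transcript record, had r = -0.03.

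**Figure D2:**
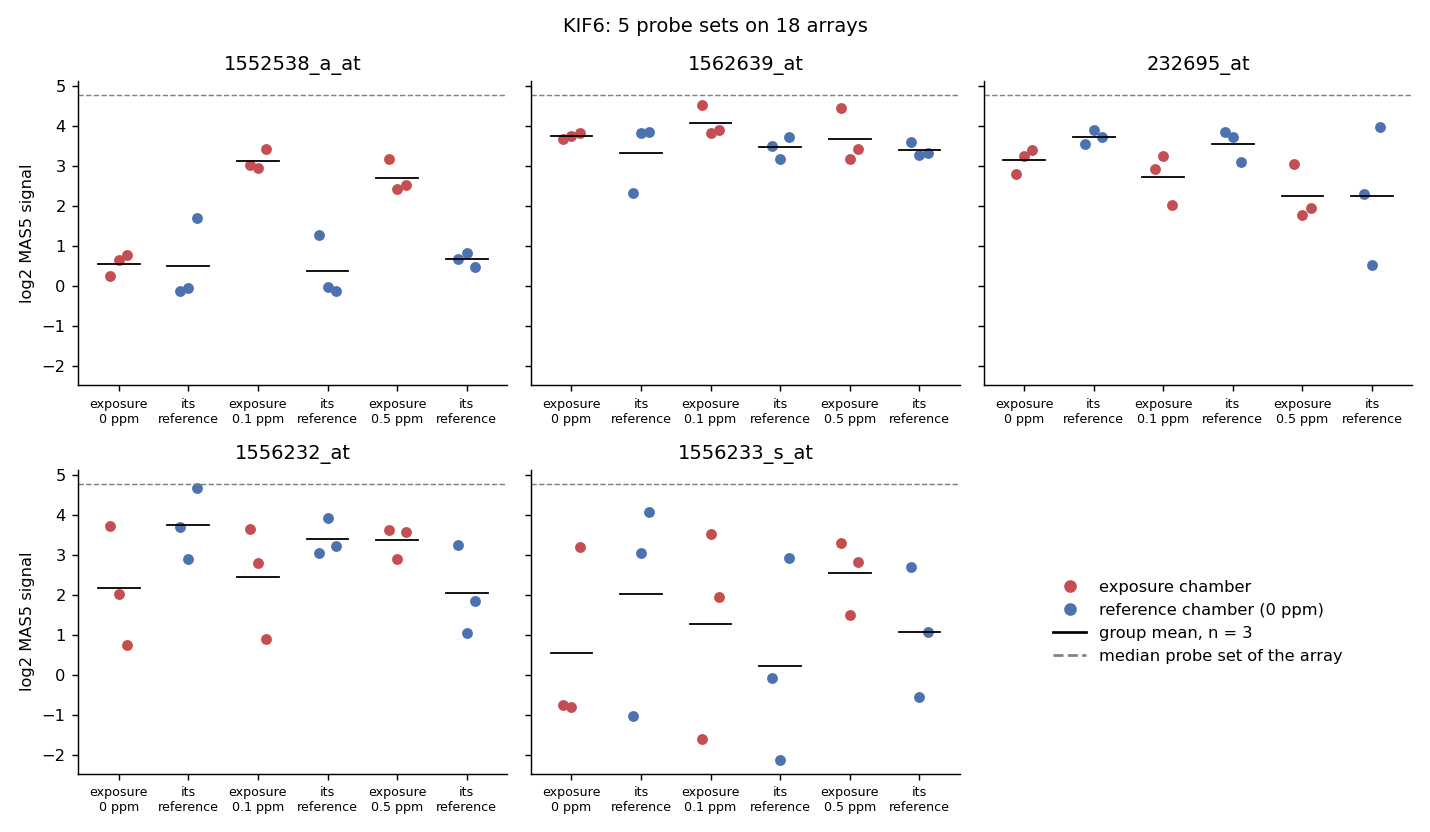
Log2 MAS5 signal (vertical axis) of the 5 KIF6 probe sets, 1 panel each, on every array by group (horizontal axis; exposure chamber left of its reference chamber at each concentration). In the panel of 1552538_a_at the 6 arrays with formaldehyde lie above the other 12, which no other panel shows, and the dashed line is the median probe set at 4.78; bars are group means (n = 3).

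RefSeq placed 2 annotated starts of KIF6 on the minus strand of chromosome 6, both shown because no probe set was assigned to a start here.
KIF6 (chr6:39431371-39431490, minus strand): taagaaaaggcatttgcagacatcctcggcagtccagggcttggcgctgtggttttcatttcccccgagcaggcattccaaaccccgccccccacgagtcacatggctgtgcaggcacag
KIF6 (chr6:39725389-39725508, minus strand): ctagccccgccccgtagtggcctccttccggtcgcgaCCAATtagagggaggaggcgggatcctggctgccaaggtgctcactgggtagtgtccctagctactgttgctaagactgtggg
The CCAAT box, in capitals, was found at the start with the higher coordinate, and the homology region core was found in neither window.

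By brightest probe set, 3 genes outside the mitotic and transport classes passed the threshold in 1 or 2 comparisons. Genes named for a call, here and below, were picked by p. Groups that stand apart therefore describe the call and add no support to it. KIF27, a kinesin-4 of motile cilia, had signals (232514_at) of 14.9, 13.02 and 18.4 in the exposure chamber at 0.5 ppm, against 12.9, 1.14 and 2.03 in its reference chamber and 1.18, 4.33 and 4.50 in the exposure chamber at 0 ppm. The 0.5 ppm arrays lay above both other groups. The log2 difference was 2.30 (SE 0.92, unadjusted p = 0.0476, limma) between chambers and 2.43 (SE 0.58, unadjusted p = 0.0067, limma) between concentrations. The call between chambers was lost in 5 of 6 fits that left out 1 array, kept only without reference chamber replicate 1, and lost with a replicate block (unadjusted p = 0.0642, limma).

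KIF26B, a kinesin-11, had signals (220002_at) of 19.99, 24.6 and 24.7 at 0.1 ppm, against 15.2, 13.4 and 17.5 at 0 ppm, in the exposure chamber. The groups did not overlap, with a log2 difference of 0.59 (SE 0.23, unadjusted p = 0.0469, limma). This call was lost in each of the 6 fits that left out 1 array.

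KIF25, a kinesin-14, had signals (208128_x_at) of 1.77, 4.20 and 4.72 in the exposure chamber at 0 ppm, against 23.7, 9.73 and 5.65 in the reference chamber. All exposure chamber arrays were lower, by -1.74 log2 units (SE 0.66, unadjusted p = 0.0404, limma), and the call was lost in 4 of 6 fits that left out 1 array. Its other called probe set, 207682_s_at, was higher at 0.5 than at 0 ppm (4.91, 10.3 and 3.56, against 2.29, 3.34 and 2.07), by 1.17 log2 units (SE 0.46, unadjusted p = 0.0477, limma). This call was lost in 5 of 6 fits that left out 1 array, with quantile normalization, with 32 added and with a trend.

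Among mitotic kinesins the 1 gene called by its brightest probe set was also the dimmest. KIF2B had signals (223926_at) of 1.33, 1.29 and 1.21 in the exposure chamber at 0 ppm, against 0.670, 0.760 and 0.517 in the reference chamber. The exposure chamber arrays were all higher, by 0.99 log2 units (SE 0.27, unadjusted p = 0.0115, limma), a difference of less than 1 signal unit that was 0.03 with 32 added.

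The 4 brightest mitotic genes passed in no comparison. KIF11, the kinesin-5 that pushes the spindle poles apart, had signals of 6453, 4856 and 3950 in the exposure chamber at 0 ppm, against 4954, 4280 and 2663 in the reference chamber. At 0.1 ppm they were 5800, 7375 and 5251 in the exposure chamber, against 2956, 6359 and 5210 in the reference chamber. At 0.5 ppm they were 4905, 5935 and 5018, against 4730, 5334 and 4500. The exposure chamber array was the higher of its experiment in all 9, by 0.011 to 0.97 log2 units. How many of all probe sets did so was not counted. The chambers overlapped in every comparison, and the log2 differences were 0.38 (SE 0.37), 0.40 (SE 0.43) and 0.12 (SE 0.23) at 0, 0.1 and 0.5 ppm. Without the array of low 5′ actin signal they were 0.11 at 0 ppm and 0.079 at 0.1 ppm.

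KIF20B, a kinesin-6 of cytokinesis, had signals of 3834, 2397 and 2537 in the exposure chamber at 0 ppm, against 2889, 1962 and 729 in the reference chamber. At 0.1 ppm they were 3351, 4648 and 3199, against 933, 3466 and 3013. At 0.5 ppm they were 3496, 3665 and 3069, against 3014, 2129 and 2584, the 1 concentration where the chambers did not overlap. The signals of 729 and 933 came from the 2 arrays of low 5′ actin signal, and the log2 differences were 0.83 (SE 0.57), 0.78 (SE 0.59) and 0.42 (SE 0.25), none past the threshold. Without those arrays the differences at 0 and 0.1 ppm were 0.26 and 0.19. KIF20B too was higher on the exposure chamber array of all 9 experiments, by 0.086 to 1.84 log2 units, again without a count over all probe sets. With 32 added before log2 it passed at 0.5 ppm (0.41, unadjusted p = 0.0342, limma).

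KIF14, a motor of the midbody, differed between chambers by 0.56 (SE 0.39), 0.46 (SE 0.46) and -0.06 (SE 0.22) log2 units at 0, 0.1 and 0.5 ppm. KIF4A, a chromokinesin of the central spindle, differed by 0.13 (SE 0.32), 0.27 (SE 0.43) and 0.16 (SE 0.41). Without the array of low 5′ actin signal the differences at 0 and 0.1 ppm were 0.29 and 0.14 for KIF14, and -0.062 and 0.087 for KIF4A. Within the exposure chamber the differences of the 4 genes ran between 0.23 and 0.46 for 0.1 against 0 ppm and between -0.09 and 0.25 for 0.5 against 0 ppm.

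As a class the mitotic genes lay higher in the exposure chamber by small amounts, also without formaldehyde. By brightest probe set, 12 of 13 were higher at 0 ppm (median log2 difference 0.34), 12 of 13 at 0.1 ppm (0.39) and 9 of 13 at 0.5 ppm (0.047). The medians over all genes were -0.098, -0.087 and -0.037, with 42.4%, 42.9% and 43.9% of genes higher. KIF22, the chromokinesin Kid, was the exception at 0 and 0.1 ppm (-0.36 and -0.08). Without the 2 arrays of low 5′ actin signal the medians were 0.15 (9 of 13 higher) at 0 ppm and 0.19 (12 of 13 higher) at 0.1 ppm. Within the exposure chamber, 12 of 13 were higher at 0.1 than at 0 ppm (0.37, and 0.15 with 10 of 13 higher without 0.1 ppm exposure chamber replicate 2), and 9 of 13 at 0.5 ppm (0.075), against -0.040 and -0.036 over all genes. In the experiment of that replicate the reference chamber array, without formaldehyde, also had a high mitotic mean (9.14, against 9.33 in the exposure chamber). The 4 alveolar type II genes SFTPB, SFTPC, NKX2-1 and ABCA3 were all lower at 0.1 ppm, with medians of -0.81 between chambers and -0.72 against 0 ppm and none past the threshold. Between chambers 2 of the 4 were lower at 0 ppm (median -0.35) and 2 at 0.5 ppm (-0.082). Against 0 ppm, 3 were lower at 0.5 ppm (-0.31). SFTPB, SFTPC and NKX2-1 lay at percentiles 58.5, 53.6 and 51.2 of all probe sets and ABCA3 at 76.2. The part of these 4 genes in the mitotic differences was not tested.

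Taken per experiment, the mean over the 13 mitotic genes was higher in the exposure chamber in 8 of 9 experiments, by 0.27 ± 0.30 log2 units (SD, n = 9). The differences were 0.47, 0.033 and 0.51 at 0 ppm, 0.74, 0.19 and 0.39 at 0.1 ppm, and 0.078, 0.25 and -0.25 at 0.5 ppm. The largest of the 3 at 0 ppm and of the 3 at 0.1 ppm belonged to the experiments with the arrays of low 5′ actin signal, and the 7 other experiments gave 0.17 ± 0.24 with 6 higher. On each of those 2 arrays, 8 of the 12 mitotic genes above the median probe set were among their 2 lowest of 18. The mean of the 12 proliferation genes, such as CDK1 and PCNA, was 10.44 (0 ppm experiments) and 10.64 (0.1 ppm experiments) on these arrays. Its median over all 18 arrays was 10.45. A part of RNA or labelling quality in the low mitotic values was not tested. In bulk RNA of 1 line, fewer cells in a given phase and less RNA per cell cannot be told apart.

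Transport genes lay on both sides of 0 in every comparison. By brightest probe set, 7 of 17 were higher in the exposure chamber at 0 ppm (median -0.23), 9 at 0.1 ppm (0.14) and 4 at 0.5 ppm (-0.12). Within the exposure chamber 9 were higher at 0.1 ppm (0.14) and 9 at 0.5 ppm (0.0035) than at 0 ppm. Without the 2 arrays of low 5′ actin signal the chamber medians were 0.0083 at 0 ppm and -0.0068 at 0.1 ppm. Per experiment, the transport mean was lower in the exposure chamber in 7 of 9, by -0.076 ± 0.19 (SD, n = 9). Its highest value, 0.26, came from the experiment with the highest mitotic value (0.74), and its lowest, -0.33, from the one with the second highest (0.51).

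The mitotic median exceeded the transport median by 0.57, 0.25 and 0.17 log2 units between the chambers at 0, 0.1 and 0.5 ppm, and by 0.23 and 0.072 within the exposure chamber at 0.1 and 0.5 ppm. The widest gap, at 0 ppm, was 0.14 without reference chamber replicate 3. It was also present with no formaldehyde in either chamber, and the classes were not compared by a test.

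**Figure D3:**
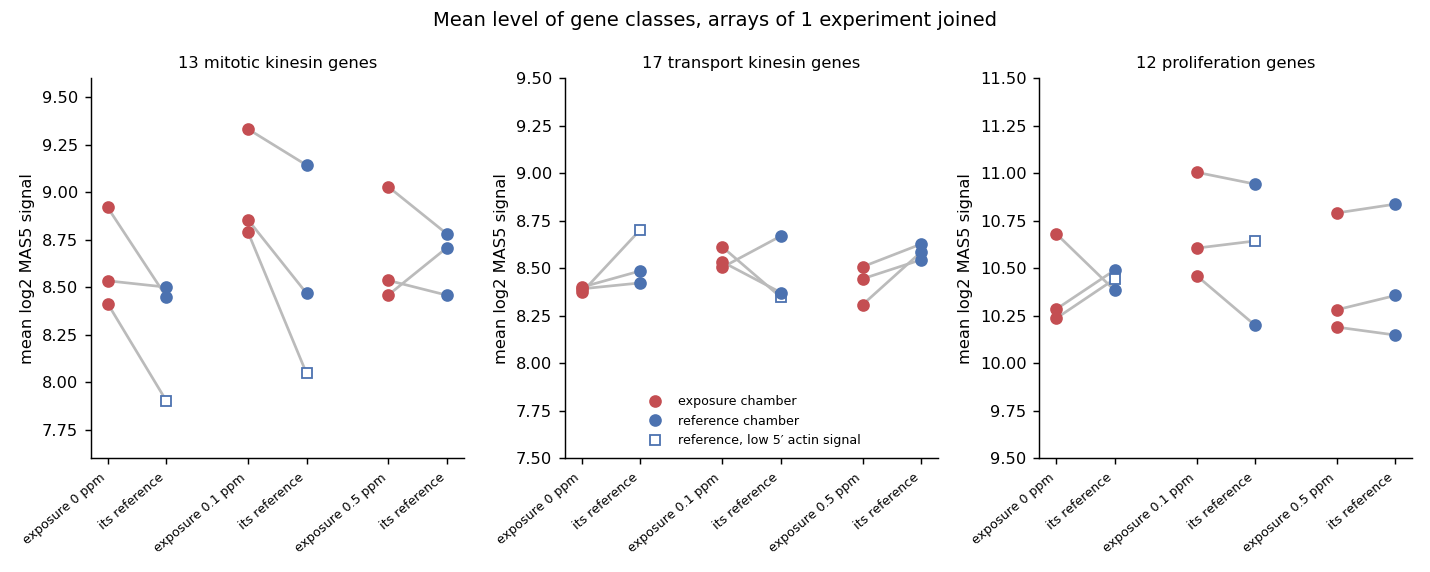
Mean log2 signal (vertical axis) of 13 mitotic and 17 transport kinesin genes and 12 proliferation genes on each array, 1 panel a list, by brightest probe set, with the exposure chamber left of its reference chamber at each concentration (horizontal axis) and lines joining the chambers of an experiment. The 2 lowest mitotic values, 7.90 and 8.05, are the reference chamber arrays (open squares) of low 5′ actin signal, and the highest, 9.33, is 0.1 ppm exposure chamber replicate 2. The next highest, 9.14, is the reference chamber array of the same experiment.

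**Figure D4:**
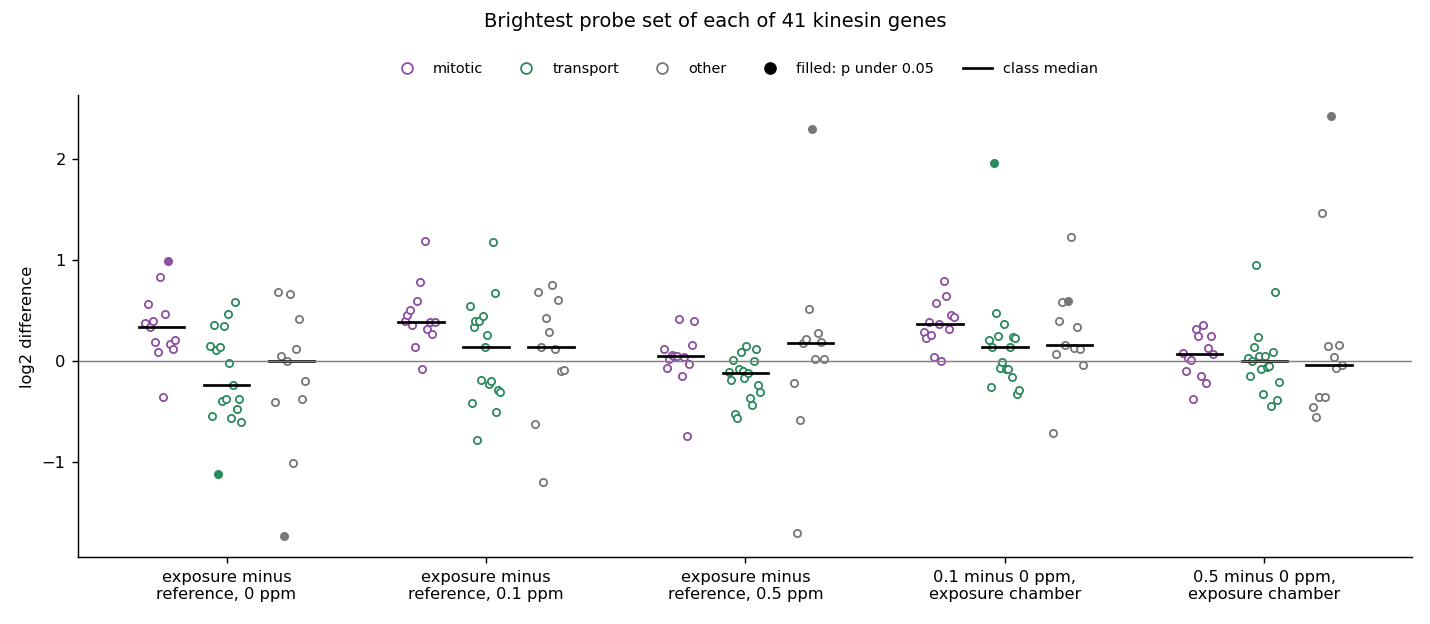
Log2 difference (vertical axis) of the brightest probe set of each of the 41 kinesin genes in the 5 comparisons (horizontal axis), by class, with points for genes, filled where the unadjusted p was under 0.05, and bars for class medians. The mitotic medians run between 0.047 and 0.39 and the transport medians between -0.23 and 0.14.

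The 4 brightest transport genes passed in no comparison in this fit. KIF5B, the kinesin-1 heavy chain found in most cells, had signals of 8175, 8611 and 6937 in the exposure chamber at 0 ppm, against 8066, 5689 and 3135 in the reference chamber. At 0.1 ppm they were 9417, 8560 and 10006, against 3185, 8637 and 7204, and at 0.5 ppm 7730, 8829 and 8614, against 7535, 9833 and 7980. The chambers overlapped throughout, 3135 and 3185 came from the arrays of low 5′ actin signal, and the log2 differences were 0.59 (SE 0.41), 0.67 (SE 0.48) and -0.00 (SE 0.23). Without those arrays they were 0.22 at 0 ppm and 0.24 at 0.1 ppm.

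KIF21A, a kinesin-4 of neurons, differed between chambers by 0.35 (SE 0.33), 0.44 (SE 0.42) and -0.10 (SE 0.22) log2 units at 0, 0.1 and 0.5 ppm. KIF13A, a kinesin-3 of endosomal cargo, differed by 0.15 (SE 0.27), 0.54 (SE 0.37) and -0.11 (SE 0.29). KIF3A, a kinesin-2 subunit of intraflagellar transport, differed by 0.46 (SE 0.40), 0.26 (SE 0.46) and 0.15 (SE 0.26). Each of these differences was below 2 of its standard errors. Without the array of low 5′ actin signal the differences at 0 and 0.1 ppm were 0.15 and 0.11 for KIF21A, 0.061 and 0.38 for KIF13A, and 0.081 and -0.13 for KIF3A. With 32 added before log2, KIF13A passed at 0.1 ppm (0.54, unadjusted p = 0.0446, limma).

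Among dim transport genes, KIF17, a kinesin-2, had signals (222144_at) of 9.23, 17.6 and 17.1 at 0.1 ppm, against 4.90, 2.28 and 4.24 at 0 ppm, in the exposure chamber. The groups did not overlap, with a log2 difference of 1.96 (SE 0.43, unadjusted p = 0.00458, limma). Its reference chamber beside 0.1 ppm gave 10.5, 8.38 and 13.8, which overlapped the exposure chamber there, with a difference of 0.40 (SE 0.43).

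KIF1A, a kinesin-3 carrier of synaptic vesicle precursors, had signals (225482_at) of 6.61, 4.62 and 5.72 in the exposure chamber at 0 ppm, against 11.2, 9.93 and 16.1 in the reference chamber. It was lower on all exposure chamber arrays, by -1.12 log2 units (SE 0.32, unadjusted p = 0.0129, limma), in the comparison that involved no formaldehyde. With a trend the KIF1A call was lost (unadjusted p = 0.134, limma).

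The remaining calls fell on dimmer probe sets of genes with a brighter one. They belonged to KIF5C (2 probe sets), KIF20B, KIF13A and KIF5A, which are named here after their values were seen. KIF5C, a neuronal kinesin-1, was higher in the exposure chamber at 0 ppm on 203129_s_at (15.5, 22.4 and 22.9, against 2.23, 8.97 and 7.11). The same probe set was lower, within the exposure chamber, at 0.1 ppm (12.3, 11.1 and 13.9) and at 0.5 ppm (11.3, 11.8 and 13.3) than at 0 ppm, by -0.69 and -0.72 log2 units. On 1557089_at KIF5C was lower in the exposure chamber at 0.1 ppm (13.3, 10.2 and 7.33, against 20.6, 23.0 and 18.9), and lower there than at 0 ppm (20.5, 32.6 and 23.6), by -1.33. KIF13A was lower at 0.1 ppm on 230990_at (7.18, 1.84 and 3.46, against 13.6, 7.84 and 11.3).

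KIF5A, also neuronal, was lower at 0.5 than at 0 ppm on 205318_at (0.431, 0.245 and 0.755, against 4.57, 4.03 and 1.15). None of these comparisons overlapped, which adds no support to calls picked by p on the same arrays. The log2 differences were 1.93 and -1.06 between chambers for KIF5C, -1.57 for KIF13A and -2.69 for KIF5A. The calls of KIF5C on 203129_s_at within the exposure chamber were lost in 5 (0.1 ppm) and 4 (0.5 ppm) of 6 fits that left out 1 array, and those of KIF5C on 1557089_at and of KIF13A between chambers in 4 of 6 each. KIF5A kept its call in all 6 such fits and lost it with 32 added (unadjusted p = 0.205, limma). KIF20B on 234748_x_at was lower in the exposure chamber at 0 ppm (12.5, 8.97 and 8.25, against 18.02, 23.0 and 36.2), by -1.34 log2 units, and higher at 0.1 than at 0 ppm within it (22.9, 19.7 and 20.3), by 1.10. With a trend the KIF20B call at 0.1 against 0 ppm was lost (unadjusted p = 0.0927, limma).

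The partners of kinesins were counted by the same rule. Of 13 measured light chains and cargo adaptors, which tie kinesins to cargo, 6, 6 and 7 were higher in the exposure chamber at 0, 0.1 and 0.5 ppm (medians -0.044, -0.011 and 0.048). MAPK8IP1, a scaffold that binds kinesin-1, was lower at 0.5 ppm on a dim probe set, 213014_at, by -1.42 (SE 0.42, unadjusted p = 0.0164, limma) against the reference chamber and by -2.45 (SE 0.49, unadjusted p = 0.00283, limma) against 0 ppm. The bright TRAK2, a mitochondrial adaptor, and KTN1, a kinesin receptor of the endoplasmic reticulum, passed nowhere, with differences between -0.05 and 0.43.

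Of 12 partners of mitotic kinesins, such as chromosomal passenger and spindle proteins, 8 were higher in the exposure chamber at each concentration (medians 0.11, 0.13 and 0.083). INCENP, a chromosomal passenger, was lower at 0.1 ppm on a dim probe set, 219769_at, by -1.29 (SE 0.40, unadjusted p = 0.0162, limma), while BIRC5 and AURKA, the brightest, ran between -0.15 and 0.39 and passed nowhere. Of 12 proliferation genes, 5, 8 and 6 were higher (medians -0.057, 0.045 and -0.020), with CDK1 at 0.63 (SE 0.41) and PCNA at 0.27 (SE 0.38) at 0 ppm. Within the exposure chamber all 12 were higher at 0.1 than at 0 ppm (median 0.30) and 7 at 0.5 ppm (0.11), while 10 and 6 of the mitotic partners were (0.17 and -0.0047). Without 0.1 ppm exposure chamber replicate 2, 9 of the 12 proliferation genes (median 0.087) and 6 of the 12 mitotic partners (-0.0040) were higher at 0.1 ppm. The reference chamber array of that experiment, which had no formaldehyde, was high too. Its proliferation mean was 10.94, against 11.01 on the exposure chamber array and a median of 10.45 over the 18 arrays.

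Of 15 genes of cytoplasmic dynein and dynactin, the motor that walks the other way, 4, 6 and 7 were higher in the exposure chamber (medians -0.12, -0.054 and -0.016). DYNC1LI2 and DYNLL1, the brightest, lay between -0.13 and 0.18. Of 11 tubulins, the track, 0, 6 and 5 were higher (medians -0.19, 0.062 and -0.048), and none passed the threshold. Without the array of low 5′ actin signal at 0 ppm, 6 of the 11 were higher there (median 0.011), so that direction rests on 1 array. TUBA1B and TUBA1C, which share much of their sequence, lay between -0.11 and 0.30.

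Mitotic kinesins also varied together from array to array, as a description over arrays that share scaling and, in pairs, an experiment. Among the 12 mitotic genes above the median probe set, the 66 pairs of genes had a median r of 0.57 over 18 arrays, and 0.47 over the 16 without low 5′ actin signal. KIF11 was closest to the mean of the others (r = 0.93, and 0.90 on 16 arrays), and KIF22 was farthest (-0.22, and 0.14 on 16 arrays). The 91 pairs of 14 transport genes had a median r of -0.026, and 0.037 on 16 arrays.

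Probe sets of the same gene had higher correlations where both were bright. Of 73 pairs from 26 genes, the 30 with both probe sets above the median probe set had a median r of 0.44 over the 18 arrays, with 12 pairs over 0.5 and 6 below 0. The 19 pairs with 1 such probe set had a median of 0.057, and the 24 with none one of 0.063. Without the 2 arrays of low 5′ actin signal the medians were 0.31, 0.054 and 0.048. There, 11 of the bright pairs were over 0.5 and 5 below 0. Of the 30 bright pairs, 7 had a permutation p under 0.05 over the 18 arrays after adjustment over all pairs. In 1 of these, of KIF16B, r was negative (-0.74). Arrays come in pairs of 1 experiment, which limits these p-values.

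KIFC2, a minus-end kinesin-14, had the highest r of these, 0.96 between 226792_s_at and 226791_at (rho = 0.93, permutation p = 1e-05, the smallest that 100000 permutations can give, adjusted p = 0.000243), and 0.92 without the 2 arrays farthest from the median. Its probe sets were designed on the same record. KIF16B, a kinesin-3 of early endosomes, had the lowest, -0.74 between 219570_at and 232083_at (rho = -0.51, permutation p = 0.00095, adjusted p = 0.0116), and -0.32 without the 2 farthest arrays, which were those of low 5′ actin signal.

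On those 2 arrays the signal of 219570_at was 399 and 407, against 655 to 1369 on the other 16, while that of 232083_at was 1136 and 1258, against 390 to 825. The log2 difference of the 2 probe sets was 0.78 ± 0.51 (SD) over the 16 arrays and -1.51 and -1.63 on those of low 5′ actin signal. They lay outside the range of the other 16 arrays in 18 (0.1 ppm experiments) and 12 (0 ppm experiments) of the 30 bright pairs, of which 11 were outside on both arrays and on the same side. Each of the other 16 arrays, set against the remaining 15, lay outside in 0 to 11 pairs (median 2.5). KIF3A, KIF5B and KIF1C, a kinesin-3 of vesicles, were among them: the KIF5B difference was 1.77 ± 0.26 on 16 arrays, and 0.60 and 0.45 on those of low 5′ actin signal. The position of the probe sets in the transcripts was not examined.

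**Figure D5:**
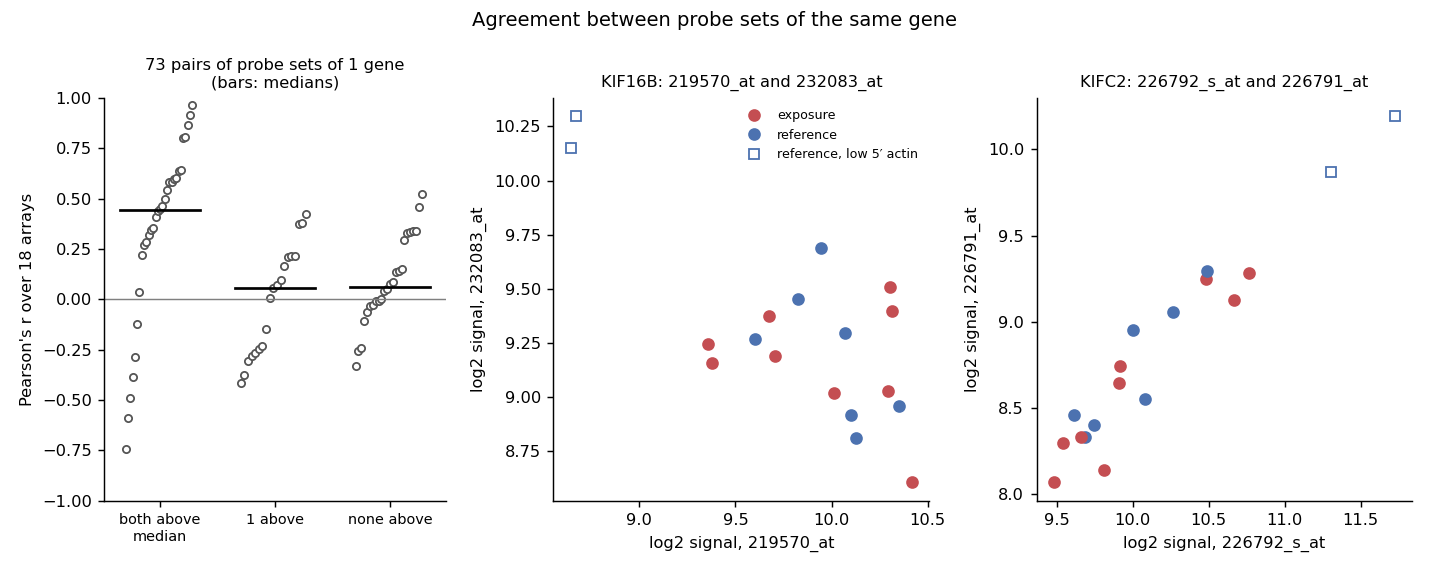
Left, Pearson's r over 18 arrays (vertical axis) of the 73 pairs of probe sets, by how many of the pair lie above the median probe set, with bars at the medians of 0.44, 0.057 and 0.063. Middle and right, log2 signals of the KIF16B and KIFC2 pairs on each array, 1 probe set an axis, where the open squares are the 2 arrays of low 5′ actin signal and lie apart from the other 16.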

How the data were processed

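RNA of 18 A549 cultures was measured, 1 array each. The authors computed MAS5 signals (version not given in the sources used here), which are deposited as linear intensity values with each array scaled to a trimmed mean of 500. Here log2 signals were fitted with limma 3.58.1 (R 4.3.3) over all 54675 probe sets, 6 arrays per comparison, two-sided, at an unadjusted p under 0.05, the study's threshold, beside Benjamini-Hochberg adjusted p-values. No filter or pseudocount was used. Replicate numbers pair the chambers of 1 experiment, as array names in the labels show, and pair nothing between concentrations. Deviations of paired arrays correlated between -0.02 and 0.12. Named genes were all KIF6 probe sets, genes whose brightest probe set passed in any comparison, the 4 brightest mitotic and transport genes, and of each partner list the members that passed and the 2 brightest. The members and lists were chosen with earlier results of these data known. The fit was tested on simulated data. Alternatives were quantile normalization, 32 added before log2, a filter at the median probe set, eBayes with a trend, 1 fit over 18 arrays, a replicate block and arrays left out. Of 25 markers, 23 had a probe set of 1 gene. Promoter windows came from RefSeq.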

Additional observations from a re-analysis of the deposited data

Results flagged for a closer look

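The chamber difference of KIF20B on the dim probe set 234748_x_at ran in opposite directions at the 2 concentrations: every exposure chamber array was higher than its reference chamber arrays at 0.1 ppm (22.9, 19.7 and 20.3, against 15.4, 9.77 and 2.91) and lower at 0 ppm (12.5, 8.97 and 8.25, against 18.02, 23.0 and 36.2). The log2 means were 1.46 and -1.34, a difference of 2.80 (limma, unadjusted p = 0.00462, adjusted p = 1.00). These opposite directions were the reason for the flag, so this p is no independent support. The array of low 5′ actin signal was in the reference chamber each time, with 15.4 and 36.2. On the brightest KIF20B probe set, 205235_s_at, the same contrast was -0.048 (limma, unadjusted p = 0.956).

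The chamber difference of KIF5C on 1557089_at was 0.52 at 0.5 ppm and -1.06 at 0.1 ppm, a difference of 1.58 log2 units, with the exposure chamber array higher in each experiment at 0.5 ppm and lower in each at 0.1 ppm. This difference was not tested. Over the 18 arrays the brightest KIF5C probe set, 203130_s_at, had r = 0.22 with 1557089_at. Both flags were sought only among kinesin probe sets that were called or named. The share of all probe sets with such opposite directions was not counted.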

How the results depend on the processing

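Most results were classed as the same under the alternatives: 98 of 119 for counts and class gaps, and 239 of 268 for named genes. This class does not mean an equal value, so these counts do not show that sizes held. For KIF11 at 0 ppm the difference was 0.38, and 0.11 without reference chamber replicate 3. The mitotic minus transport gap at 0.5 against 0 ppm was 0.072, and -0.048 without 0 ppm exposure chamber replicate 3. Many of the named differences had not passed, so they had no call to lose. With 32 added before log2, 5 kinesin probe sets passed between chambers at 0.1 ppm (2.82% of all probe sets did), 4 at 0.5 ppm (2.89%), and 3 at 0.5 against 0 ppm (4.36%). Tested above the median probe set alone, which leaves out every kinesin probe set called in the fit over all probe sets, 1, 0 and 0 passed between chambers at 0, 0.1 and 0.5 ppm, and 2 and 1 within the exposure chamber at 0.1 and 0.5 ppm (1.44% to 3.69% of all). A fit over all 18 arrays gave 1 between chambers at 0.5 ppm (2.94%) and 3 at 0.5 against 0 ppm (3.28%), and a trend gave 3 there (3.80%). The replicate block gave 4 at 0.5 ppm between chambers (5.32%); among named calls it lost KIF25 at 0 ppm (unadjusted p = 0.0991, limma) and KIF27 at 0.5 ppm, and also KIF26B within the exposure chamber, where the numbers pair nothing (unadjusted p = 0.0970, limma). Leaving out 1 array gave counts of 5 to 8, 1 to 3 and 1 to 5 between chambers at 0, 0.1 and 0.5 ppm, and 4 to 8 and 4 to 7 within the exposure chamber at 0.1 and 0.5 ppm. The share of all probe sets ran between 3.98% and 5.52% in these fits, except 9.11% at 0 ppm without reference chamber replicate 1, which gave the 8. The lowest at 0.1 ppm came without exposure chamber replicate 2. The mitotic minus transport gap was 0.14 to 0.84, 0.19 to 0.62 and 0.071 to 0.28 between chambers, and 0.13 to 0.46 and -0.048 to 0.19 within the exposure chamber. It was 0.14 at 0 ppm without the array of low 5′ actin signal, and 0.56 at 0.1 against 0 ppm as a mean over all probe sets of a gene. Signs turned for KIF6 on 1552538_a_at at 0 ppm, with 32 added (-0.0088) and with arrays left out (-0.27 to 0.64), for KIF4A at 0 ppm (-0.062 to 0.26) and for KIF3A at 0.1 ppm (-0.13 to 0.49), none of which had passed. The causes were not tested. Signal near the background limits the 32 dim probe sets.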
